A study of Mus musculus with 11 samples.

Results

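The contractile genes of smooth muscle and myofibroblasts described here are Acta2, Actg2, Tagln, Myl9, Cnn1, Myh11, Synpo2, Lmod1, Tpm2 and Cald1. They were chosen by name, and each of the 10 matched 1 line of a count table with 53924 named genes. All 10 passed the filter on low counts, as did 16990 genes in all. The table came from RNA-seq of 11 libraries of mouse embryonic fibroblasts (MEFs), connective tissue cells grown from mouse embryos of day 13.5 and collected at passage 2. There were 2 Trex1p212fs, 3 Trex1D18N, 3 Trex1-/- and 3 wild-type (WT) libraries, which addressed how alterations of the same gene differ in their effect on the cells. Trex1 encodes a DNA exonuclease that degrades DNA in the cytosol. The labels give the genotypes by these names and do not state the zygosity of Trex1p212fs or Trex1D18N. All groups shared the same medium with fetal bovine serum, and the culture description names primary and spontaneously immortalized MEFs without saying which libraries came from which. The labels do not say that libraries came from separate embryos or cultures, so a p-value here covers the scatter of these libraries alone. Where a group shows a single sex pattern, as Trex1p212fs and WT do below, that scatter may be technical, while Trex1D18N and Trex1-/- each hold libraries of both patterns.

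Smooth muscle cells shorten when myosin II pulls on actin filaments, and fibroblasts take on a related apparatus, with smooth muscle actin in their stress fibres, when they become myofibroblasts. Transcription of many of these genes is driven by serum response factor (SRF), which binds CArG boxes, together with myocardin or the actin-regulated cofactors MRTF-A and MRTF-B. Transforming growth factor beta (TGF-beta), stiff substrates and serum are known inducers of the myofibroblast state in cultured fibroblasts.

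CArG boxes, with CC and GG around a core of A and T, were searched on both strands of the RefSeq promoter windows (GRCm38.p6, 250 bases before to 50 after each start). Of the 10 genes, 7 had a window, with 2 windows for Cald1. Actg2, Tagln and Myh11 had no entry. The box was found upstream of the RefSeq start of Myl9. A looser form with 1 G or C in the core was found upstream of the RefSeq starts of Myl9 and Acta2. These 2 genes lead the results below, so the 250 bases before their RefSeq starts are shown. They read 5′ to 3′ on the gene's strand, with the boxes in capitals.
Acta2, chr19:34255374-34255623, minus strand: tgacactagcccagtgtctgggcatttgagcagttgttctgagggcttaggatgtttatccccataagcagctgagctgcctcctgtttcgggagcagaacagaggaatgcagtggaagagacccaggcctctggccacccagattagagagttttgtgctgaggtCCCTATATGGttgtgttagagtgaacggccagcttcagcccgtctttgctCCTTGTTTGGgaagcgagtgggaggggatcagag
Myl9, chr2:156775214-156775463, plus strand: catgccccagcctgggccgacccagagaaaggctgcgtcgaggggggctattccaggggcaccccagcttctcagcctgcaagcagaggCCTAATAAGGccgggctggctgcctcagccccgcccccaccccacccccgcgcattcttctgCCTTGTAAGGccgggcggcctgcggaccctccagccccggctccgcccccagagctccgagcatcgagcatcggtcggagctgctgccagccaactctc
The looser boxes of Acta2 began 84 and 34 bases before its RefSeq start. GENCODE starts Acta2 further upstream, at 34255590, so both boxes lie inside the gene span given below. In Myl9 the box began 161 bases and its looser form 99 bases before the start. The box occurred in 1.63% of 32851 promoter windows of all genes and the looser form in 8.5%. The motif CATTCC, bound by TEAD factors, was in the windows of 3 of the 7 genes (Acta2, Lmod1 and Cald1) and in 14.7% of all windows, and TATAAA was in those of 2 (Synpo2 and Cald1) and in 13.6%. None of these matches overlapped another motif searched in Acta2 or Myl9, and a match describes the letters of the window only.

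Library totals ran from 16059426 to 21748034 counts. Trex1 itself had 0 counts in all 11 libraries, where its exons lie under those of Atrip, so the counts check no genotype label. Xist, made from the inactive X chromosome, had 425 to 903 counts per 1000000 (CPM) in the 3 WT libraries, 940 CPM in Trex1-/- replicate 2 and 1044 CPM in Trex1D18N replicate 1. The other 6 libraries had at most 0.179 CPM of Xist and expressed the Y-linked Ddx3y, so all WT libraries had a female pattern and both Trex1p212fs libraries a male one. Genotype and sex cannot be told apart between Trex1p212fs and WT. Fibroblast genes were high everywhere, with 10 collagen and stromal genes summing to 22284 to 26078 CPM in Trex1p212fs, 67316 to 80889 CPM in Trex1D18N, 49618 to 59489 CPM in Trex1-/- and 48102 to 53219 CPM in WT libraries. In such bulk samples, fewer cells of a type and less RNA per cell cannot be told apart.

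Set against exon length, smooth muscle actin led the group in WT MEFs. Acta2 had 2099 ± 442 CPM per kb (SD, n = 3), and Myl9 followed at 416 ± 81.5. Tpm2 at 156 ± 44.8 and Actg2 at 150 ± 41.1 CPM per kb did not differ beyond their spread. Below them came Cald1 at 83.0 ± 11.5, Cnn1 at 34.8 ± 6.85 and Lmod1 at 17.1 ± 1.77 CPM per kb. Tagln at 8.84 ± 2.93 and Myh11 at 8.0 ± 2.26 CPM per kb overlapped, and Synpo2 was lowest at 0.70 ± 0.27. The lengths are those of all annotated exons together, so genes with many isoforms, such as Cald1 and Synpo2, are set low. Tagln is uncertain: 67.9% of its exon bases lie under exons of Pcsk7 or Gm48529 on the other strand, and how the authors counted such reads is not given in the sources used here. All 10 genes were detected in all 11 libraries, so the libraries held RNA of the contractile apparatus whichever genotype they had.

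The 2 smooth muscle actins were lower in Trex1D18N than in WT MEFs, and their lower values in Trex1-/- MEFs did not pass the test. Acta2 (chromosome 19, 34241090 to 34255590, GRCm38), the actin isoform that defines myofibroblasts, had 4257 and 4046 CPM in Trex1p212fs, 817, 2178 and 2319 CPM in Trex1D18N, 1473, 1351 and 3271 CPM in Trex1-/-, and 5310, 3499 and 5016 CPM in WT libraries. Every Trex1D18N and Trex1-/- library lay below every WT and Trex1p212fs library, and the Trex1p212fs values lay inside the WT range. By edgeR's quasi-likelihood test with Benjamini-Hochberg adjustment over all genes, Acta2 fell in Trex1D18N against WT, by 1.38 ± 0.42 on the log2 scale (SE, adjusted p = 0.0368). Against WT its log2 fold change was -1.18 ± 0.42 in Trex1-/- (adjusted p = 0.156) and -0.15 ± 0.46 in Trex1p212fs (adjusted p = 0.846).
Actg2 (chromosome 6, 83512905 to 83536265), the enteric smooth muscle actin, had 195 and 244 CPM in Trex1p212fs, 24.7, 98.1 and 87.0 CPM in Trex1D18N, 100.35, 72.3 and 169 CPM in Trex1-/-, and 217, 181 and 305 CPM in WT libraries. Again no Trex1D18N or Trex1-/- library reached the lowest WT library. Its fall in Trex1D18N against WT was the largest of the 10 genes, by 1.74 ± 0.48 on the log2 scale (adjusted p = 0.0285). The change was -1.04 ± 0.47 in Trex1-/- (adjusted p = 0.226) and -0.09 ± 0.52 in Trex1p212fs (adjusted p = 0.920). Its coding sequence is near that of Acta2, but 0% of its 50-base windows, and 0.352% of those of Acta2, occurred in transcripts of other genes.

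**Figure D1:**
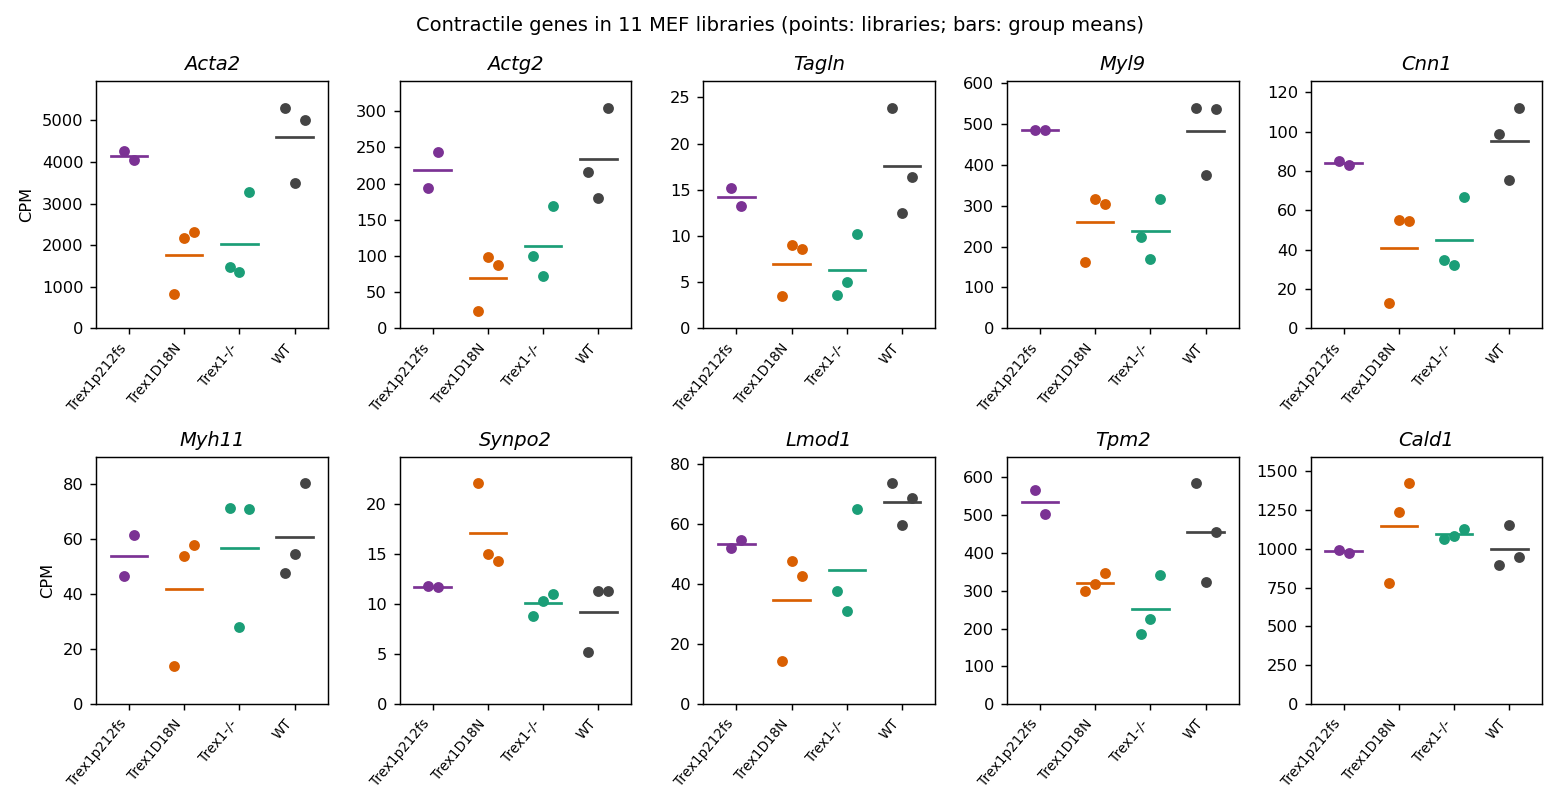
Level of each of the 10 contractile genes in CPM (vertical axis, from 0) in the Trex1p212fs, Trex1D18N, Trex1-/- and WT libraries (horizontal axis); points are libraries and bars group means. Acta2, Actg2, Tagln, Myl9 and Cnn1 show the Trex1D18N and Trex1-/- points below all WT points, while Synpo2 is highest in Trex1D18N.

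The myosin light chain followed the actins and the heavy chain did not pass the test. Myl9 (chromosome 2, 156775420 to 156781658), the smooth muscle regulatory light chain whose phosphorylation switches myosin II on, had 485 and 485 CPM in Trex1p212fs, 163, 316 and 304 CPM in Trex1D18N, 224, 171 and 317 CPM in Trex1-/-, and 540, 374 and 536 CPM in WT libraries. The Trex1D18N and Trex1-/- values did not overlap those of WT or Trex1p212fs. Myl9 fell in Trex1D18N against WT by 0.89 ± 0.27 on the log2 scale (adjusted p = 0.0371), and its change in Trex1-/- was -1.03 ± 0.28 (adjusted p = 0.127). In Trex1p212fs the log2 fold change was 0.01 ± 0.30 (adjusted p = 0.994).
Myh11 (chromosome 16, 14194535 to 14291372), the smooth muscle myosin heavy chain and a marker of mature smooth muscle, had 46.4 and 61.5 CPM in Trex1p212fs, 14.0, 53.7 and 57.6 CPM in Trex1D18N, 71.1, 28.0 and 70.9 CPM in Trex1-/-, and 47.7, 54.6 and 80.2 CPM in WT libraries. The groups overlapped, and the lowest values were those of the 2 mutant libraries with a female pattern. No comparison passed the test for Myh11: its log2 fold change against WT was -0.17 ± 0.56 in Trex1p212fs, -0.54 ± 0.50 in Trex1D18N and -0.10 ± 0.50 in Trex1-/-.

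Among the proteins that bind and regulate actin filaments, Tagln and Cnn1 had the pattern of Acta2. Tagln (chromosome 9, 45929619 to 45936058), which encodes the actin cross-linker transgelin, had 15.2 and 13.3 CPM in Trex1p212fs, 3.52, 8.99 and 8.56 CPM in Trex1D18N, 3.66, 5.04 and 10.3 CPM in Trex1-/-, and 23.9, 12.5 and 16.3 CPM in WT libraries. No Trex1D18N or Trex1-/- library reached the lowest WT library. Tagln fell in Trex1D18N against WT by 1.32 ± 0.42 on the log2 scale (adjusted p = 0.0435), and the changes in Trex1-/- and Trex1p212fs were -1.48 ± 0.43 (adjusted p = 0.131) and -0.30 ± 0.46 (adjusted p = 0.684).
Cnn1 (chromosome 9, 22099216 to 22109630), the calponin that restrains the actomyosin ATPase, had 85.0 and 83.2 CPM in Trex1p212fs, 12.8, 54.9 and 54.5 CPM in Trex1D18N, 35.0, 32.4 and 66.6 CPM in Trex1-/-, and 98.6, 75.2 and 112 CPM in WT libraries. Its Trex1D18N and Trex1-/- libraries all lay below those of WT. Its log2 fold change against WT was -1.23 ± 0.48 in Trex1D18N (adjusted p = 0.0853), -1.10 ± 0.48 in Trex1-/- (adjusted p = 0.211) and -0.18 ± 0.53 in Trex1p212fs (adjusted p = 0.838), none past the threshold.

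Tropomyosin and caldesmon, which lie along actin filaments and gate access of myosin, did not pass the test against WT in any mutant. Tpm2 (chromosome 4, 43514711 to 43523765), the beta tropomyosin of smooth and skeletal muscle, had 566 and 502 CPM in Trex1p212fs, 301, 317 and 348 CPM in Trex1D18N, 186, 224 and 343 CPM in Trex1-/-, and 584, 324 and 456 CPM in WT libraries. WT replicate 2 lay among the mutant values. Its log2 fold change against WT was 0.23 ± 0.26 in Trex1p212fs (adjusted p = 0.573), -0.50 ± 0.24 in Trex1D18N (adjusted p = 0.138) and -0.86 ± 0.24 in Trex1-/- (adjusted p = 0.130).
Cald1 (chromosome 6, 34598500 to 34775473), which encodes the smooth muscle and nonmuscle caldesmons, had 990 and 975 CPM in Trex1p212fs, 778, 1239 and 1421 CPM in Trex1D18N, 1064, 1081 and 1129 CPM in Trex1-/-, and 893, 1155 and 949 CPM in WT libraries. Each mutant group overlapped WT, and its log2 fold changes against WT were -0.02 ± 0.22 in Trex1p212fs, 0.20 ± 0.19 in Trex1D18N and 0.13 ± 0.19 in Trex1-/-. Counts per gene sum over its isoforms, so a switch between the smooth muscle and nonmuscle caldesmon would not be seen.

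Lmod1 and Synpo2, which act at filament ends and at Z-disc-like structures, differed from each other. Lmod1 (chromosome 1, 135324807 to 135368065), the smooth muscle leiomodin that nucleates actin filaments, had 52.1 and 54.6 CPM in Trex1p212fs, 14.2, 47.8 and 42.5 CPM in Trex1D18N, 37.7, 31.2 and 64.9 CPM in Trex1-/-, and 73.6, 59.8 and 68.7 CPM in WT libraries. The Trex1p212fs and Trex1D18N libraries all lay below WT, and Trex1-/- replicate 3 lay within the WT range. Its log2 fold change against WT was -0.34 ± 0.44 in Trex1p212fs (adjusted p = 0.630), -0.95 ± 0.39 in Trex1D18N (adjusted p = 0.100) and -0.60 ± 0.39 in Trex1-/- (adjusted p = 0.377).
Synpo2 (chromosome 3, 123076519 to 123236149), which encodes the actin-bundling protein myopodin of smooth and striated muscle, had 11.78 and 11.68 CPM in Trex1p212fs, 22.04, 15.02 and 14.29 CPM in Trex1D18N, 8.80, 10.30 and 11.03 CPM in Trex1-/-, and 5.19, 11.24 and 11.23 CPM in WT libraries. Every Trex1D18N library lay above the other 8. Synpo2 rose in Trex1D18N against WT by 0.89 ± 0.27 on the log2 scale (adjusted p = 0.0356), with changes of 0.35 ± 0.30 in Trex1p212fs (adjusted p = 0.455) and 0.12 ± 0.28 in Trex1-/- (adjusted p = 0.820).

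In Trex1D18N against WT, 4 genes fell (Acta2, Actg2, Tagln and Myl9), where 13.2% of all genes tested fell, and 1 rose (Synpo2), where 12.2% of all genes rose. The libraries did not overlap for 6 genes that were lower, against 21.8% of all genes, and for 1 that was higher, against 23.1%. The median log2 fold change of the 10 genes was -0.92, against 0.04 over all genes tested.
The calls rested on few libraries. Of the 5, 0 were left without WT replicate 1 or WT replicate 3, 1 without Trex1D18N replicate 1 or 2 or without either Trex1p212fs library, whose spread the fit shares, and 3 without Trex1D18N replicate 3. The direction of the 5 held in all 21 alternative settings, with log2 fold changes from -2.26 to -1.04 for Acta2, from -2.86 to -1.35 for Actg2, from -1.99 to -1.01 for Tagln, from -1.47 to -0.65 for Myl9 and from 0.60 to 1.09 for Synpo2.

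In Trex1-/- against WT no contractile gene was called by edgeR, where 0% of all genes tested were called. Of the 10, 5 had an unadjusted p under 0.05 (Acta2, Tagln, Myl9, Cnn1 and Tpm2), as did 3862 of the 16990 genes. DESeq2 called 4 lower (Acta2, Tagln, Myl9 and Tpm2) and 846 genes in all, and limma-voom called 0 of the 10 and 1 in all. The libraries did not overlap, with Trex1-/- lower, for 5 genes (Acta2, Actg2, Tagln, Myl9 and Cnn1), against 11.2% of all genes. The median log2 fold change was -0.94, against 0.01 over all genes tested. Without WT replicate 2 edgeR called 3 lower (Tagln, Myl9 and Tpm2), where 6.3% of all genes tested were lower.
In Trex1p212fs against WT 0 of the 10 were called, where 17.1% of all genes were called in either direction. None had an unadjusted p under 0.05, and DESeq2 and limma-voom called 0. The log2 fold changes lay between -0.34 and 0.35, with a median of -0.12, against -0.02 over all genes. With the sex pattern of the libraries as a term in the fit the median was -1.22, and 2 genes were lower. The libraries did not overlap for 2 genes (Synpo2, higher, and Lmod1, lower), where they did not overlap for 53.4% of all genes. With 2 Trex1p212fs libraries the standard errors ran from 0.22 to 0.56 on the log2 scale, and a missed threshold does not show equal levels. These 3 comparisons share the WT libraries.

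**Figure D2:**
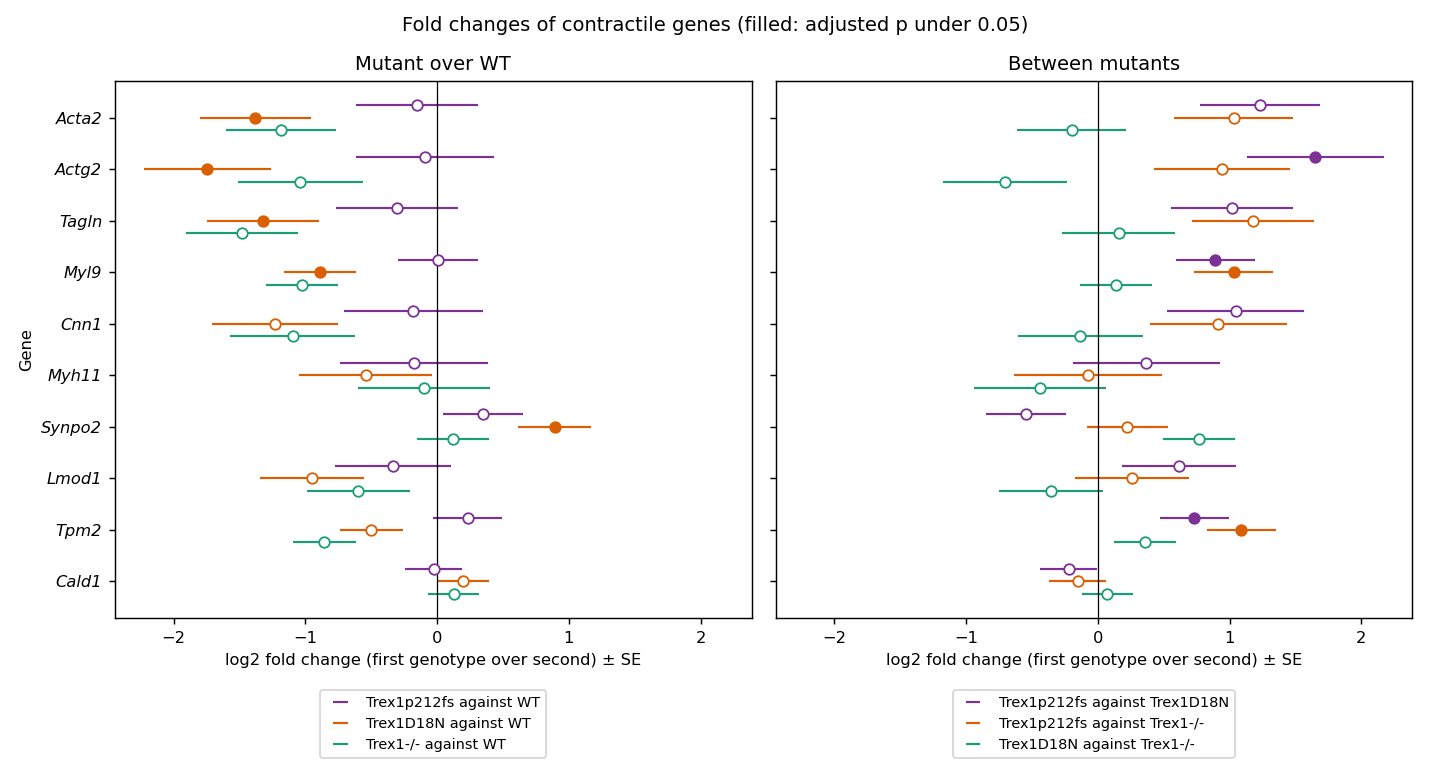
log2 fold change with its SE (horizontal axis) of each contractile gene (vertical axis), for each mutant over WT (left) and between mutants (right); filled points had an adjusted p under 0.05. Over WT, filled points are found for Trex1D18N in Acta2, Actg2, Tagln, Myl9 and Synpo2, and the Trex1p212fs points lie between -0.34 and 0.35.

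Trex1p212fs MEFs were also set directly against the other mutants. Against Trex1D18N, 3 genes were higher and 0 lower, where 18.6% of all genes were higher. These were Actg2, by 1.65 ± 0.52 on the log2 scale (adjusted p = 0.0311), Myl9, by 0.89 ± 0.30 (adjusted p = 0.0365), and Tpm2, by 0.73 ± 0.26 (adjusted p = 0.0458). Acta2 was near the threshold at 1.23 ± 0.45 (adjusted p = 0.0541). The libraries did not overlap for 7 genes that were higher (these 4, Tagln, Cnn1 and Lmod1), against 34.4% of all genes, and the median log2 fold change was 0.81, against -0.03 over all genes. The count was 1 without Trex1D18N replicate 1 and 0 without either Trex1p212fs library, which leaves that group with a single library assumed to vary like the rest. With the sex pattern as a term, Acta2 (adjusted p = 0.0300), Actg2 and Myl9 were higher, where 17.8% of all genes were, and Tpm2 no longer passed (adjusted p = 0.0822).
Against Trex1-/-, 2 genes were higher and 0 lower, where 15.4% of all genes were higher. They were Tpm2, by 1.09 ± 0.26 on the log2 scale (adjusted p = 0.0102), and Myl9, by 1.03 ± 0.30 (adjusted p = 0.0238). The libraries did not overlap for 7 genes that were higher (Acta2, Actg2, Tagln, Myl9, Cnn1, Synpo2 and Tpm2), against 30.4% of all genes, and the median log2 fold change was 0.93, against -0.02 over all genes. The count was 0 without either Trex1p212fs library, 1 without Trex1-/- replicate 1 or 2, 4 without Trex1-/- replicate 3 and 6 without Trex1D18N replicate 1. Over all genes, 23.3% were called in either direction without Trex1-/- replicate 3, and 32.5% without Trex1D18N replicate 1. With the sex pattern as a term the same 2 genes were higher, where 14.2% of all genes were, and the median log2 fold change was 0.51.
Between Trex1D18N and Trex1-/- 0 of the 10 genes were called, where 6.8% of all genes were called in either direction. By unadjusted p under 0.05 there was 1 (Synpo2, log2 fold change 0.77 ± 0.27, adjusted p = 0.114), while DESeq2 and limma-voom called 0. Without WT replicate 1, Synpo2 was called. Synpo2 was also the 1 gene whose libraries did not overlap, against 27.7% of all genes, and the median log2 fold change was -0.03, against -0.01 over all genes.

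Across libraries most of the genes varied as a block. The correlation of log2 CPM with the mean of the other 9 genes over the 11 libraries was 0.98 for Cnn1, 0.95 for Acta2, 0.92 for Myl9 and Lmod1, 0.90 for Actg2 and 0.88 for Tagln. Myh11 (0.72) and Tpm2 (0.64) followed less closely, Cald1 did not follow (0.14) and Synpo2 had a negative value (-0.53). Spearman rank correlations of Myh11 were 0.32 with Acta2, 0.36 with Cnn1 and 0.52 with Actg2, below the Pearson values of 0.68, 0.78 and 0.80. Those of Synpo2 with the other members ran from -0.41 (Lmod1) to 0.16 (Cald1), where the Pearson values were -0.65 and 0.05. Within genotypes Cald1 correlated at 0.48 (Tagln) to 0.75 (Cnn1) with the members other than Tpm2 (-0.05) and Synpo2 (-0.17). These values describe points that share libraries, normalisation and genotype, and for Tagln and Acta2 the correlation within genotypes was still 0.94.
The block was lowest in Trex1D18N replicate 1, which had the lowest level of all 11 libraries in 8 of the 10 genes and the highest in Synpo2. The ratio of the highest to the lowest library was 12.4 for Actg2, 8.78 for Cnn1, 6.50 for Acta2 and 1.83 for Cald1. WT replicate 1 was highest in 5 genes and WT replicate 3 in 3. Trex1-/- replicate 3 stood above the other 2 Trex1-/- libraries in Acta2, Actg2, Tagln, Myl9, Cnn1, Lmod1 and Tpm2.

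**Figure D3:**
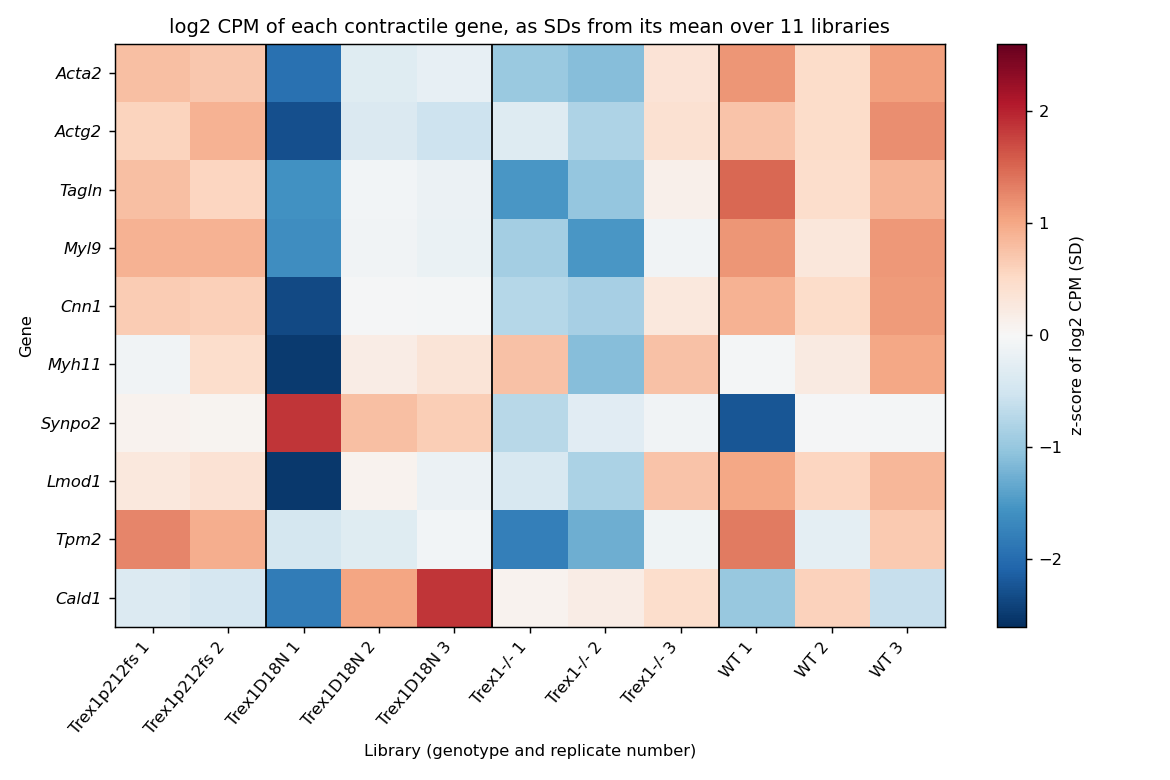
Level of each contractile gene (rows) in each library (columns, by genotype and replicate number), as the z-score of log2 CPM over the 11 libraries; red is above and blue below the gene's mean. Trex1D18N replicate 1 is the lowest library for 8 genes and the highest for Synpo2.

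Of the 2 mutant libraries with a female pattern, Trex1D18N replicate 1 stood apart from its group, and Trex1-/- replicate 2 lay near replicate 1. The mean z-score of log2 CPM over the 10 genes was -1.52 in Trex1D18N replicate 1, against 0.09 and 0.15 in the other Trex1D18N libraries. In Trex1-/- replicate 2 it was -0.86, against -0.65 in replicate 1 and 0.28 in replicate 3, both male in pattern. Trex1D18N replicate 1 was the lowest Trex1D18N library in 9 of the 10 genes (all but Synpo2), and Trex1-/- replicate 2 the lowest Trex1-/- library in 6 (all but Cald1, Synpo2, Tagln and Tpm2). The WT libraries, all female in pattern, had the highest group mean in 6 of the 10 genes (Acta2, Actg2, Tagln, Cnn1, Myh11 and Lmod1). With the sex pattern as a term in the fit, which rests on these 2 libraries, Trex1D18N against WT had 1 gene higher, where 8.05% of all genes were, and 7 lower, where 5.95% were, adding Cnn1, Lmod1 and Myh11. In the same fit 7 genes were lower in Trex1-/- against WT (all but Cald1, Synpo2 and Tpm2), where 0.288% of all genes were. In Trex1p212fs against WT 2 were lower, where 3.55% of all genes were: Myh11 with a log2 fold change of -1.82 (adjusted p = 0.00931) and Lmod1 with -1.49 (adjusted p = 0.0303). Acta2 (-1.27, adjusted p = 0.0944), Actg2 (-1.46, adjusted p = 0.0640) and Cnn1 (-1.48, adjusted p = 0.0902) did not pass there. Embryo sex and the single library cannot be told apart in this design.

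Other genes were ranked by their likeness to the block over the 11 libraries. By Pearson correlation of log2 CPM with the mean z-score of the 10 genes, among 9558 genes with a mean of at least 10 CPM, the first 5 were Cnn2 (0.93), Actg1 (0.92), Nexn (0.92), Csrp1 (0.90) and Actb (0.89). Cnn2 is a calponin of nonmuscle cells, Actg1 and Actb are the cytoplasmic actins, and Nexn and Csrp1 encode actin-associated proteins of muscle. The next 5 were Rflnb, Ccn2, which encodes a secreted matrix protein, Pea15a, Tpm4 and Cnn3, with correlations of 0.86 to 0.87. Spearman rank correlations ordered these 10 otherwise. They were 0.727 for Nexn and 0.745 for Ccn2, and from 0.836 (Rflnb and Pea15a) to 0.964 (Cnn3) for the others. These genes were picked over the same libraries that the comparisons use, so their ranks are a description.

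Of the members' 21 paralogues, 5 rose and 6 fell in Trex1D18N against WT, 2 rose and 2 fell in Trex1p212fs, and 0 were called in Trex1-/-. Their shares of 23.8% higher and 28.6% lower in Trex1D18N stood beside 12.2% and 13.2% of all genes tested, and those of 9.52% in each direction in Trex1p212fs beside 8.13% higher and 8.95% lower. Their median log2 fold changes were 0.10 in Trex1p212fs, -0.40 in Trex1D18N and -0.26 in Trex1-/-. The 5 that rose are striated muscle isoforms: Lmod3 (8.34 ± 0.78), Synpo2l (6.05 ± 0.60), Acta1 (5.60 ± 0.57), Lmod2 (6.76) and the cardiac actin Actc1 (6.85) on the log2 scale. The 6 that fell were Actb, Actg1, Cnn2, Myl6, Myl12a and Synpo, by 0.50 to 0.77 on that scale. In Trex1p212fs against WT, Acta1 (2.45 ± 0.55, adjusted p = 0.0170) and Lmod3 rose, while Myh9, the main nonmuscle myosin heavy chain, fell by 0.94 ± 0.22 on the log2 scale (adjusted p = 0.0159), as did Synpo. Actb and Actg1 had log2 fold changes of -0.65 ± 0.21 and -0.56 ± 0.18 in Trex1-/- against WT (adjusted p = 0.141 for both).

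The smooth muscle isoforms were also expressed as shares of the summed CPM per kb of their families. Acta2 made up 41.6% ± 0.56 (SD, n = 2) of the actins in Trex1p212fs, 29.9% ± 8.75 (n = 3) in Trex1D18N, 35.1% ± 7.69 (n = 3) in Trex1-/- and 45.4% ± 2.13 (n = 3) in WT libraries. By library the share was 42.0% and 41.3% in Trex1p212fs, 19.8%, 34.9% and 35.1% in Trex1D18N, 33.9%, 28.1% and 43.4% in Trex1-/-, and 46.5%, 42.9% and 46.8% in WT. Trex1-/- replicate 3 reached the WT range, and the other Trex1-/- and all Trex1D18N libraries did not. The skeletal and cardiac actins together with the smooth muscle ones share this total: Acta1 held 11.4%, 3.47% and 2.76% of actin in the Trex1D18N libraries, against at most 0.0771% in any WT library, and Actc1 9.16%, 2.25% and 2.18%, against at most 0.0302%.
Cnn1 held 6.14% ± 0.09 of the calponins in Trex1p212fs (n = 2), 4.14% ± 2.02 in Trex1D18N, 4.41% ± 1.07 in Trex1-/- and 6.68% ± 0.64 in WT libraries (n = 3 each), with every library of all 3 mutants below every WT library. For Myl9 the share of the regulatory light chains was 81.8% ± 1.30 in Trex1p212fs, 80.7% ± 3.46 in Trex1D18N, 78.2% ± 4.17 in Trex1-/- and 84.1% ± 1.63 in WT libraries. Its Trex1D18N libraries spanned 77.0% to 83.7% and its WT libraries 82.9% to 85.9%. Myh11 held 6.22% ± 1.58 of the myosin heavy chains in Trex1p212fs, 2.91% ± 1.17 in Trex1D18N, 3.79% ± 1.38 in Trex1-/- and 3.98% ± 0.83 in WT, with both Trex1p212fs libraries above all WT libraries, and Myh9 lower in Trex1p212fs. Actg2 held 3.11% ± 0.57 of the actins in Trex1p212fs, 1.64% ± 0.71 in Trex1D18N, 2.85% ± 0.63 in Trex1-/- and 3.27% ± 0.68 in WT libraries, and no Trex1D18N library reached the WT range. Tpm2 held 19.8% and 18.1% of the tropomyosins in the Trex1p212fs libraries, 17.2% ± 3.01 in Trex1D18N, 13.4% ± 2.42 in Trex1-/- and 17.2% ± 2.82 in WT libraries, and each mutant group overlapped WT. These shares are given as description. Near-identical copies, such as the pair Myl12a and Myl12b and the processed copies of Actb and Actg1, may share or lose reads. In the GRCm38 annotation, other exons overlie 19.9% of the exon bases of Myl12a and 26.7% of those of Myl12b. A second Myl12b entry lies 100% under such exons. The share of Myl9 may therefore be set high, which was not tested.

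**Figure D4:**
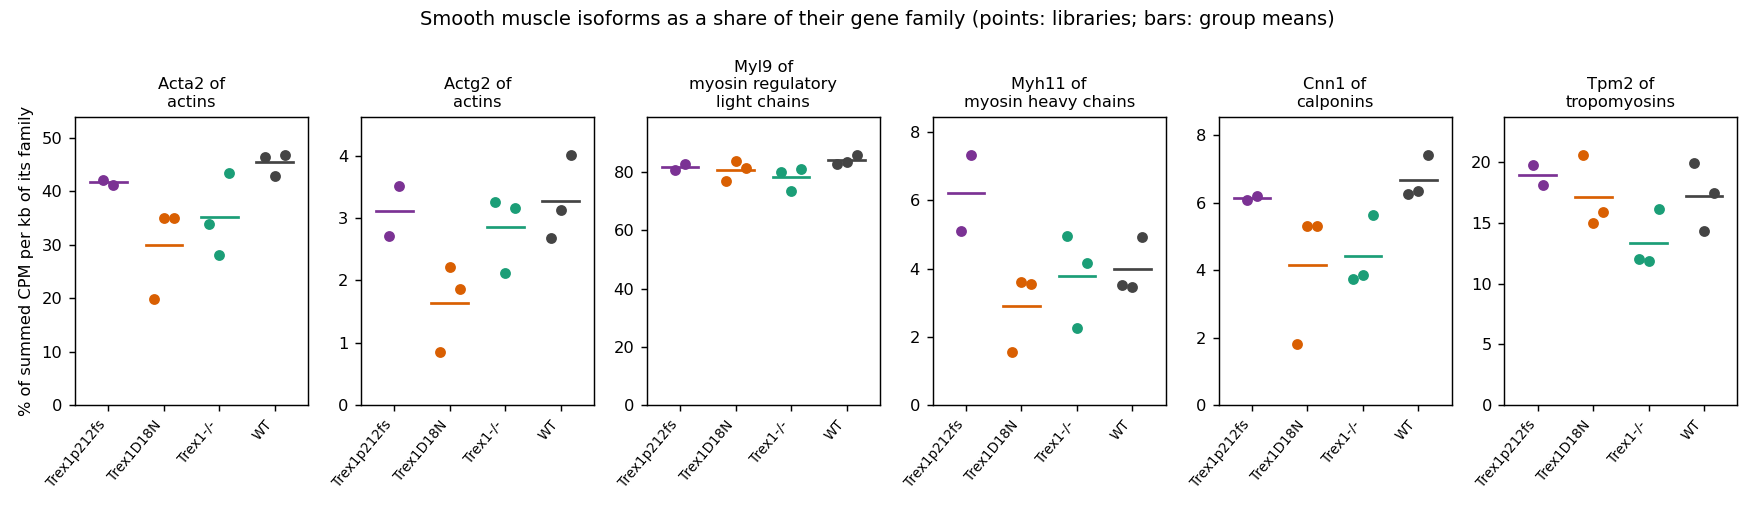
Share of 6 smooth muscle isoforms in the summed CPM per kb of their gene family (vertical axes in percent, from 0) by genotype (horizontal axis); points are libraries and bars group means. Acta2 makes up 42.9% to 46.8% of actin in WT libraries and 19.8% to 35.1% in Trex1D18N libraries.

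Of 28 other contractile and cytoskeletal genes, 2 rose and 5 fell in Trex1D18N against WT (median -0.24 on the log2 scale), 0 rose and 5 fell in Trex1p212fs (median -0.37) and 0 were called in Trex1-/- (median -0.15). The shares of 7.14% higher and 17.9% lower in Trex1D18N, and of 17.9% lower in Trex1p212fs, stood beside 12.2%, 13.2% and 8.95% of all genes tested. In Trex1D18N, Pdlim3 (2.73 ± 0.44, adjusted p = 0.00293), a Z-disc protein, and the muscle intermediate filament Des (1.26 ± 0.22, adjusted p = 0.00414) rose, while the caveolar Cav1 fell by 0.84 ± 0.20 on the log2 scale (adjusted p = 0.0128). In Trex1p212fs, Cav1 fell by 1.68 ± 0.23 on the log2 scale (adjusted p = 0.00143), and so did the focal adhesion gene Vcl (log2 fold change -1.85 ± 0.50, adjusted p = 0.0311). Flna had a log2 fold change of -0.05 ± 0.19 and Tpm1 of -0.50 ± 0.18 in Trex1-/- against WT. Between mutants, Tpm1 was higher in Trex1p212fs than in Trex1D18N, by 0.97 ± 0.19 (adjusted p = 0.00346), and than in Trex1-/-, by 0.99 ± 0.19 (adjusted p = 0.00415).

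Srf, which encodes the factor that binds CArG boxes, had 56.7 ± 0.92 CPM in Trex1p212fs (n = 2), 66.8 ± 9.91 CPM in Trex1D18N, 77.3 ± 16.5 CPM in Trex1-/- and 95.4 ± 2.26 CPM in WT libraries (SD, n = 3 each). Against WT it fell by 0.75 ± 0.18 on the log2 scale in Trex1p212fs (adjusted p = 0.0165) and by 0.51 ± 0.16 in Trex1D18N (adjusted p = 0.0340), and its change in Trex1-/- was -0.30 ± 0.16 (adjusted p = 0.261). Pfn1, which encodes profilin, and the actin-severing cofilin gene Cfl1 fell in Trex1D18N against WT by 0.96 ± 0.18 on the log2 scale (adjusted p = 0.00559) and 0.76 ± 0.18 (adjusted p = 0.0138). In Trex1-/- against WT, Cfl1 and Pfn1 both had log2 fold changes of -0.55 ± 0.18 (adjusted p = 0.141).

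Of 22 genes of TGF-beta signalling, 2 rose (9.09%, beside 12.2% of all genes) and 1 fell (4.55%, beside 13.2%) in Trex1D18N against WT. In Trex1p212fs 1 rose (4.55%, beside 8.13%) and 2 fell (9.09%, beside 8.95%), and 0 were called in Trex1-/-. In Trex1D18N the coreceptor Tgfbr3 (1.01 ± 0.23 on the log2 scale, adjusted p = 0.0117) and the ligand Tgfb2 (1.03 ± 0.31, adjusted p = 0.0342) rose, and the pseudoreceptor Bambi fell by 0.83 ± 0.15 (adjusted p = 0.00425). In Trex1p212fs the corepressor Ski and the mediator Smad4 fell by 0.66 ± 0.16 (adjusted p = 0.0182) and 0.49 ± 0.13 (adjusted p = 0.0265), and Ltbp1, which stores latent TGF-beta in the matrix, rose by 0.73 ± 0.20 (adjusted p = 0.0305).
Of 20 matrix and myofibroblast targets, 3 rose (15%, beside 12.2% of all genes) and 0 fell in Trex1D18N against WT, 0 rose and 5 fell (25%, beside 8.95%) in Trex1p212fs, and 0 were called in Trex1-/-. Postn, a matricellular protein of activated fibroblasts, had 686 ± 316 CPM in Trex1p212fs, 5656 ± 893 CPM in Trex1D18N, 2443 ± 118 CPM in Trex1-/- and 2409 ± 106 CPM in WT libraries. It rose in Trex1D18N by 1.23 ± 0.22 on the log2 scale (adjusted p = 0.00398), as did Tgfbi and Col3a1, and fell in Trex1p212fs by 1.81 ± 0.25 (adjusted p = 0.00153), as did Itga11 and Col1a1.

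Markers of other cell types moved with some of these results. The 20 skeletal muscle genes summed to 44.3 to 52.5 CPM in Trex1p212fs, 998 to 2438 CPM in Trex1D18N, 19.1 to 35.9 CPM in Trex1-/- and 27.4 to 31.1 CPM in WT libraries. In Trex1D18N against WT 19 of the 19 tested rose (100%, beside 12.2% of all genes). Among them were Neb (6.07 ± 0.38 on the log2 scale), Mylpf (6.58 ± 0.44) and Myl1 (8.62 ± 0.58). In Trex1p212fs 3 rose (15.8%, beside 8.13%). The sum was highest, at 2438 CPM, in Trex1D18N replicate 1, the library with the lowest contractile block and the highest Synpo2. Of the muscle-determining factors, Myod1 was at 7.32 to 20.6 CPM in Trex1D18N and at 0 in 2 of the 3 WT libraries, and Myf5 stayed under 1 CPM in all libraries. Tnnc2, the fast troponin C gene, was listed at 0 in all libraries, and 74.0% of its exon bases lie under exons of Ube2c on the other strand. Synpo2, Tpm2 and Lmod3 are also genes of striated muscle. The part of skeletal muscle RNA in the Synpo2 and Tpm2 results was not tested.
The 10 macrophage genes summed to 460 to 604 CPM in Trex1p212fs, 58.2 to 119 CPM in Trex1D18N, 207 to 329 CPM in Trex1-/- and 765 to 949 CPM in WT libraries, mostly Lyz2, with none of the 10 at 0 in any library. In Trex1D18N against WT 9 fell (90%, beside 13.2% of all genes). Lyz2 fell by 3.54 ± 0.31 on the log2 scale and Tyrobp by 3.05 ± 0.25. In Trex1p212fs 1 fell (Csf1r, by 1.82 ± 0.38), a share of 10% beside 8.95% of all genes, and in Trex1-/- 0 were called. Their part in the contractile results was not tested.
Of 8 genes of pericytes and mural cells, which also make contractile proteins, 7 were tested. In Trex1D18N against WT 1 fell (Mcam, by 0.98 ± 0.19 on the log2 scale), a share of 14.3% beside 13.2% of all genes. In Trex1p212fs 4 fell (57.1%, beside 8.95%), among them Cspg4, by 1.49 ± 0.23, Mcam and Kcnj8. In Trex1-/- 0 were called. The list summed to 534 to 538 CPM in Trex1p212fs, 783 to 904 CPM in Trex1D18N, 751 to 910 CPM in Trex1-/- and 794 to 939 CPM in WT libraries, and its part was not tested.
Of 10 fibroblast genes, 3 rose (30%, beside 12.2% of all genes) and 1 fell (10%, beside 13.2%) in Trex1D18N against WT. In Trex1p212fs 6 fell (60%, beside 8.95%), and in Trex1-/- 0 were called. Col1a2 rose by 0.70 ± 0.14 on the log2 scale in Trex1D18N and fell by 1.26 ± 0.16 in Trex1p212fs, where Thy1 fell by 2.79 ± 0.39. Of 5 cardiac genes tested, 2 rose in Trex1D18N (Actc1 and Tnnt2), a share of 40% beside 12.2% of all genes. The cardiac sum was highest, at 372 CPM, in Trex1D18N replicate 1, as was the skeletal muscle sum. The part of skeletal muscle RNA in these 2 results was not tested. Of 6 endothelial genes 2 rose there (Pecam1 and Kdr, 33.3%) and 1 fell in Trex1p212fs (Cdh5, 16.7%, beside 8.95%). Endothelial levels were low, with a list sum of 6.59 to 20.2 CPM over all libraries. Pecam1 was at 0.81 CPM in Trex1D18N and 0.17 CPM in WT, and Cdh5 at 0.24 CPM in Trex1p212fs and 1.08 CPM in WT. Among 6 epithelial genes 1 rose in Trex1D18N (Krt5, a share of 16.7% beside 12.2% of all genes). In Trex1-/- 0 of these were called.

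**Figure D5:**
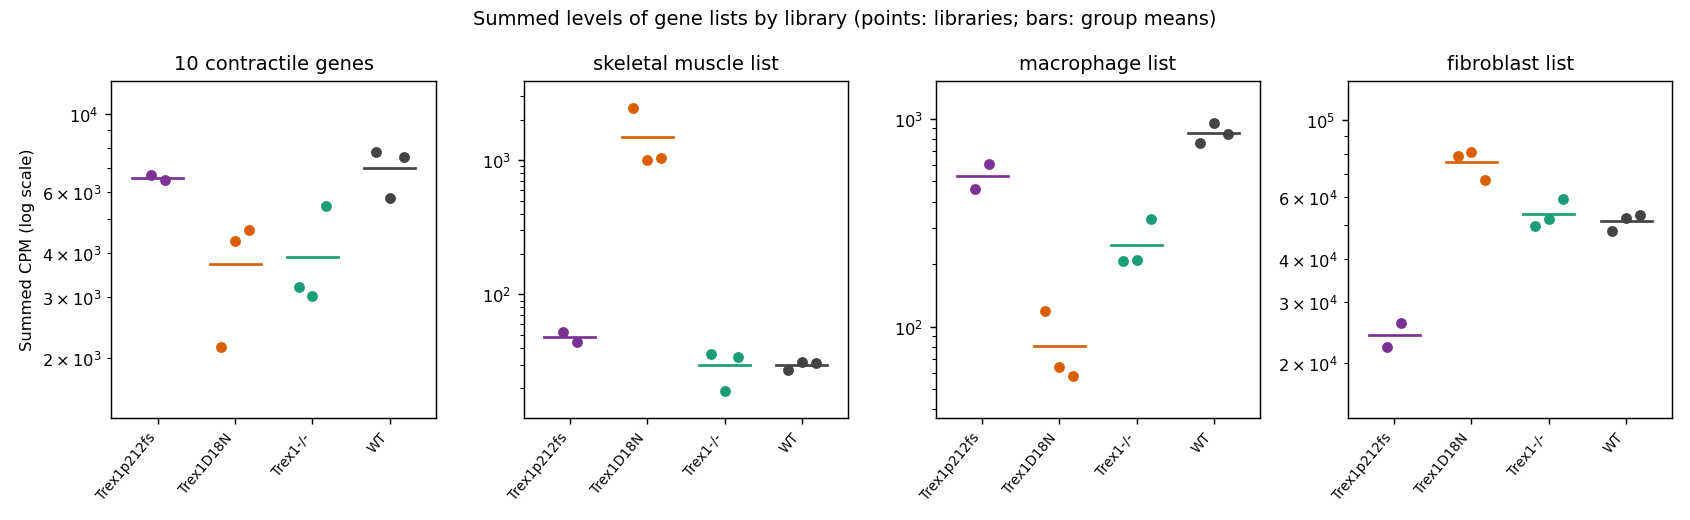
Summed CPM of the 10 contractile genes and of the skeletal muscle, macrophage and fibroblast lists (vertical axes on a log scale) by genotype (horizontal axis); points are libraries and bars group means. The skeletal muscle sum is 998 to 2438 CPM in Trex1D18N libraries and at most 52.5 CPM in the others, and the macrophage sum is highest in WT at 765 to 949 CPM.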

How the data were processed

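Gene-level read counts of 11 libraries were used as raw counts, as the authors deposited them. The reads had been trimmed with fastp, aligned with HISAT2 to GRCm39 and counted with featureCounts, per the submitters' processing notes; tool versions, gene annotation and strand setting are not given in the sources used here. Of 55578 lines, 1654 without a name (0.0804% to 0.129% of counts) were left out, and 0 sample columns were unused. Genotypes came from the labels. edgeR 4.0.16 (R 4.3.3) filtered genes at a minimum count of 10, scaled library totals by TMM and fitted all 11 libraries with genotype alone, in 6 contrasts; a gene was called at an adjusted p under 0.05. The biological coefficient of variation was 22.5%. CPM are counts per 1000000 of the TMM-scaled total. DESeq2 1.42.0, limma 3.58.1, other scalings and filters, a sex term, a replicate block and libraries left out in turn were alternatives. The labels state no pairing of libraries by replicate number. Exon lengths and positions came from GENCODE annotation of GRCm38, and promoters from RefSeq. The 10 genes are all named, and from each other list the counts, with up to 3 called genes of smallest p or the 2 most abundant; members and lists were chosen with earlier results of these data known. Nexn, Csrp1, Rflnb, Ccn2, Pea15a, Tpm4, Cnn3 and the values of Lmod2, Actc1, Myod1, Myf5 and Tnnc2 were named for the pattern, family or marker check.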

Additional observations from a re-analysis of the deposited data

How the results depend on the processing

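Of 60 gene and comparison values under 21 alternatives, 0 called values changed sign, and 39 sign changes were seen among values past the threshold in neither fit. Counts of contractile genes called were as follows. DESeq2 gave 4 in Trex1-/- against WT and 4 in Trex1p212fs against Trex1-/-, in place of 0 and 2. It called 4.98% and 36.3% of all genes tested in these comparisons, in either direction. With the sex pattern as a term there were 7 in Trex1-/- against WT, 8 in Trex1D18N against WT and 2 in Trex1p212fs against WT, in place of 0, 5 and 0. That fit called 2.24%, 14% and 7.83% of all genes there, in either direction. With no filter on low counts, 31432 genes entered the adjustment, and the counts were 1 in Trex1D18N against WT, 1 in Trex1p212fs against Trex1-/- and 0 in Trex1p212fs against Trex1D18N. Beside these stood 12.4%, 15.9% and 19.4% of all genes. With single libraries left out, counts ranged from 0 to 3 in Trex1-/- against WT, from 0 to 6 in Trex1D18N against WT, from 0 to 0 in Trex1p212fs against WT, from 0 to 1 in Trex1D18N against Trex1-/-, from 0 to 6 in Trex1p212fs against Trex1-/- and from 0 to 4 in Trex1p212fs against Trex1D18N. The replicate block gave 4 in Trex1D18N against WT (Synpo2 lost, adjusted p = 0.0541), 3 and 4 for Trex1p212fs against Trex1-/- and Trex1D18N, and 0 elsewhere. The shares of all genes called with the block in the comparisons with a call were 22.4%, 27.7% and 34.9%, in that order. Same-numbered libraries correlated at -0.209 to 0.14 in their deviations from group means. These values show no pairing, but with so few libraries in a group they cannot exclude one. Over all genes, counts with any setting ran from 0 to 2269 in Trex1-/- against WT (2269 without WT replicate 2), from 1662 to 5350 in Trex1D18N against WT and from 494 to 3947 in Trex1p212fs against WT, in place of 0, 4303 and 2902. They ran from 406 to 2035, from 1621 to 6253 and from 2674 to 8093 in Trex1D18N against Trex1-/-, Trex1p212fs against Trex1-/- and Trex1p212fs against Trex1D18N, in place of 1155, 5523 and 6571. Causes of these moves were not tested, and some alternatives also bring a larger number of genes or a smaller number of libraries.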
